A study of Mus musculus with 8 samples.

Results

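The genes described are Cd74, H2-Aa, H2-Ab1, H2-Eb1 and H2-DMa, 5 transcripts of major histocompatibility complex class II antigen presentation. They are the rows with these IDs in a deposited table of 11234 genes, and all 5 IDs are listed. They were picked because their values differed between genotypes in these same libraries, so their genotype values are described here without a test. RNA came from interscapular brown adipose tissue, a fat depot between the shoulder blades that produces heat, of male C57BL/6 mice aged 12 weeks. All animals had spent 2 weeks at 29 °C, near the temperature at which a mouse needs no extra heat, and tissue was taken at 5 PM (zeitgeber time 10). In the 4 control libraries (replicates 11, 12, 13 and 14) the mice were HDAC3 floxed, with loxP sites around part of the gene. The 4 knockout libraries (replicates 4, 5, 19 and 20) carry the same floxed gene and Adiponectin-Cre, a recombinase expressed from a promoter active in adipocytes, so other cells of the depot are expected to keep Hdac3. HDAC3 is the histone deacetylase of the NCoR and SMRT corepressor complexes. No label states which animals gave which libraries, so p-values measure only the spread between these libraries, which may be technical.

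Class II molecules are heterodimers of an alpha and a beta chain that display peptides from endocytosed proteins to CD4 T cells. The chains assemble with the invariant chain, encoded by Cd74, which blocks the peptide groove until cathepsins degrade it in endosomes. H2-DM then removes the remaining fragment and lets peptide bind. Dendritic cells, B cells and macrophages are the main producers, and interferon gamma can induce the genes in other cells, adipocytes among them, through the coactivator CIITA. C57BL/6 mice carry the b haplotype, in which the E alpha gene is defective. H2-Eb1 is therefore transcribed in this strain while its chain lacks the usual partner.

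CIITA binds no DNA itself and assembles on factors bound to an X box (RFX and CREB family proteins) and a Y box (NF-Y) upstream of class II genes. The upstream sequences below are shown because these 3 members had similar ratios between genotypes and do not all hold the same letters. They come from RefSeq (GRCm38.p6), a later build than the mm9 of the authors' processing. Of the 4 H2 members, H2-Aa, H2-Eb1 and H2-DMa were matched in the table of promoters, and H2-Ab1 was not. Sequences run 5′ to 3′ along the gene, and capitals mark GCAAC (part of the X box, or its reverse complement), TGACGTCA (the CREB site) and CTGATTGG (the Y box).
H2-Aa, chr17:34287842-34287934, minus strand: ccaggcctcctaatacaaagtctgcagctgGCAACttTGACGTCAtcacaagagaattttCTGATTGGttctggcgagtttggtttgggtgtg
H2-Eb1, chr17:34305745-34305837, plus strand: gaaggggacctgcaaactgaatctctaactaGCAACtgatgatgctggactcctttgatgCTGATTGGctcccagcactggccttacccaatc
H2-DMa, chr17:34122732-34122831, plus strand: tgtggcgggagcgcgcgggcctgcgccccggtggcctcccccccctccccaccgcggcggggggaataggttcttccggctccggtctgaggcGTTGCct

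H2-Aa and H2-Eb1 hold GCAAC and CTGATTGG on the same strand, with 25 and 24 bases between them. The Y box letters start at position -51 in H2-Aa and at -62 in H2-Eb1, counted from the start site. Over the 250 bases upstream of 32851 RefSeq start sites, searched on both strands, 29.9% held GCAAC, 1.55% TGACGTCA and 3.83% CTGATTGG. GCAAC followed by 20 to 40 bases and CTGATTGG on the same strand was found in 32 of these windows, or 0.0974%, belonging to 30 genes. Among the 30 were H2-Aa, H2-Eb1, H2-Eb2 and H2-Oa, all of them class II genes. The window printed for H2-DMa, picked because it holds GTTGC, held GCAAC on the opposite strand, near the start site, and no CTGATTGG. A further H2-DMa start site, with its window at chr17:34125268-34125567, held no GCAAC, TGACGTCA or CTGATTGG on either strand. It held ATTGG, the end of the Y box letters, at positions -198 to -194, letters found in 33.8% of all windows. The letters were chosen with the sequences in view, and a match describes the sequence only. Only exact letters were searched, so boxes with other letters would be missed.

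Library totals implied by the deposited RPKM values were 13619308 to 17986134 reads, and 17.1% to 20.1% of them in control and 21.4% to 25% in knockout libraries fell on the listed genes. RPKM is the read number divided by gene model length and library total. Hdac3 itself stood at 7.64 ± 0.511 TMM-scaled RPKM in control and 3.29 ± 0.588 in knockout libraries (SD, n = 4 each), 43.0% of the control mean, with no overlap (p = 0.0286 by a two-sided exact permutation over libraries, as low as 4 against 4 can give). TMM scaling divides each library by a factor, here 0.893 to 1.12, that brings most genes level. Of 8764 genes tested by limma on log2(TMM-scaled RPKM + 1), 35.3% were called, 19.4% higher and 15.9% lower in the knockout, at an adjusted p under 0.05. The split depends on scaling, with 31.9% higher and 7.17% lower on deposited RPKM and 12.4% and 30.2% after scaling to the sum of listed genes. The median log2 fold change of all genes was 0.01 under TMM, 0.14 on deposited RPKM and -0.11 under the listed-gene sum.

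The 5 class II genes were higher in every knockout library than in every control library. Beside this, 30.0% of all tested genes had every knockout library above every control library in deposited RPKM, and 18.8% did so after TMM scaling. Because the genes were chosen on this contrast, nothing is read from their count. In bulk tissue, more cells that express a gene and more RNA per cell cannot be told apart.

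H2-Aa encodes the alpha chain of the A molecule, the class II heterodimer of this strain. It had 17.3, 22.3, 21.7 and 16.4 deposited RPKM in control replicates 11, 12, 13 and 14. In knockout replicates 4, 5, 19 and 20 it had 41.9, 34.3, 50.9 and 33.1 deposited RPKM. Knockout replicate 19 was highest, and the lowest knockout library lay well above the highest control. The knockout mean was 2.06 times the control mean in deposited RPKM, the widest ratio of the 5 genes, and 1.81 times after TMM scaling (20.6 ± 2.58 against 37.4 ± 6.48, SD, n = 4 each).

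H2-Ab1 encodes the beta chain that pairs with it. Its control values were 11.7, 13.9, 14.3 and 8.99 deposited RPKM in the same order of replicates. Its knockout values were 23.1, 17.9, 28.0 and 18.5 deposited RPKM. Control replicate 14 was the lowest of all 8 libraries. The ratio of means was 1.79 in deposited RPKM and 1.58 after TMM scaling, where the groups stood at 12.96 ± 2.21 and 20.5 ± 3.66 (SD, n = 4 each).

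H2-Eb1, the beta chain of the E molecule, had 9.73, 12.0, 12.3 and 9.50 deposited RPKM in control libraries. The knockout libraries had 21.8, 15.9, 27.9 and 17.3 deposited RPKM. The knockout libraries spread more widely than the controls, with replicate 19 again highest. The ratio of means was 1.91 in deposited RPKM and 1.67 after TMM scaling (11.5 ± 1.12 against 19.3 ± 4.33, SD, n = 4 each).

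Cd74, the invariant chain and the most abundant of the 5 per length, had 26.6, 31.4, 36.9 and 22.95 deposited RPKM in control libraries. It had 58.8, 45.0, 67.1 and 49.2 deposited RPKM in knockout libraries. These values rest on 545 to 788 reads per control library and 1039 to 1509 per knockout library. The ratio of means was 1.87 in deposited RPKM and 1.65 after TMM scaling (31.2 ± 4.80 against 51.4 ± 7.46, SD, n = 4 each). Among the 11234 listed genes, its TMM-scaled mean ranked 452 from the top in control and 325 in knockout libraries.

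H2-DMa, the alpha chain of the peptide editor H2-DM, was listed at far lower values, 0.861, 1.02, 1.02 and 0.827 deposited RPKM in control libraries. The knockout libraries had 1.85, 1.48, 2.24 and 1.48 deposited RPKM. Reads numbered 23 to 30 per control library and 40 to 59 per knockout library, so counting error is larger here than for the other members. The ratio of means was 1.89 in deposited RPKM and 1.66 after TMM scaling (0.990 ± 0.0802 against 1.65 ± 0.285, SD, n = 4 each). Its control mean lay below the minimum of 1 RPKM used for testing, and it passed that filter through its knockout values.

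**Figure D1:**
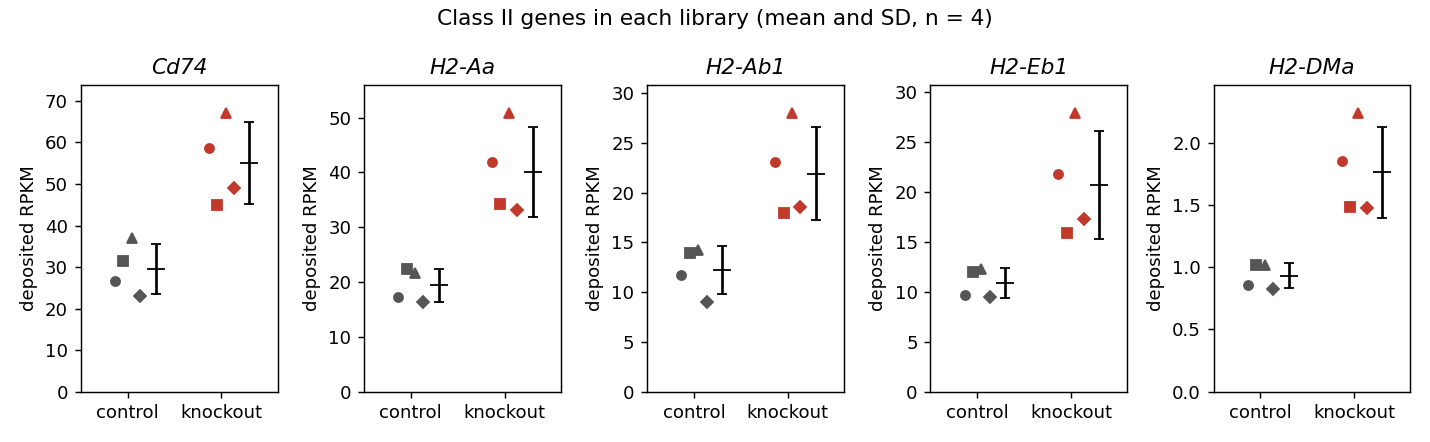
Deposited RPKM (y axis, linear from 0) of the 5 class II genes in each library by genotype (x axis). Symbols mark replicates (circle, square, triangle and diamond for 11, 12, 13 and 14 in control and for 4, 5, 19 and 20 in knockout), and the bar beside each group is its mean and SD (n = 4); every knockout library lies above every control library, and knockout replicate 19 is highest for each gene.

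The log2 fold changes, knockout minus control, in the authors' deposited table were 0.70 for Cd74, 0.84 for H2-Aa, 0.64 for H2-Ab1, 0.72 for H2-Eb1 and 0.71 for H2-DMa. Scaling to the sum of listed genes gave the lowest ratios of means. They were 1.47 for Cd74, 1.62 for H2-Aa, 1.41 for H2-Ab1, 1.49 for H2-Eb1 and 1.48 for H2-DMa. The genotypes did not overlap there, but the share of all genes without overlap was not computed under this scaling. Because the genes were chosen on this contrast, nothing is read from it. Leaving out any single library kept the TMM-scaled ratios between 1.46 and 1.92. The lower end, for H2-Ab1, is that without knockout replicate 19.

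The levels per length fell in the same order in both genotypes, Cd74, H2-Aa, H2-Ab1, H2-Eb1 and H2-DMa. H2-Ab1 and H2-Eb1 overlapped in both genotypes, H2-Ab1 being the higher in 3 of 4 control libraries and in 4 of 4 knockout libraries. The TMM-scaled ranges of Cd74 and H2-Aa overlapped in the knockout, though Cd74 was above H2-Aa within each of the 8 libraries. All other neighbours in the order were separate.

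Ratios between members within a library do not depend on the scaling. Cd74 made up 40.3% ± 1.79 of the summed RPKM of the 5 genes in control and 39.6% ± 1.25 in knockout libraries (SD, n = 4 each). H2-Aa stood at 1.61 ± 0.157 times H2-Ab1 in control and 1.83 ± 0.0542 times in knockout libraries, with ranges that overlapped, since control replicate 14 reached 1.83. H2-Eb1 stood at 0.902 ± 0.104 and 0.940 ± 0.0449 times H2-Ab1. H2-DMa came to 4.82% ± 0.219 of the RPKM of H2-Aa in control and 4.40% ± 0.0592 in knockout libraries (SD, n = 4), and here every knockout library, at 4.32% to 4.46%, lay just under the lowest control at 4.57%. That control value, of replicate 12, rests on 30 H2-DMa reads and would be 4.42% with 1 read fewer, inside the knockout range, and this was the 1 ratio of 11 computed whose groups did not overlap.

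Within each genotype the members kept nearly the same order of libraries. In TMM-scaled RPKM, knockout replicate 19 was highest and replicate 4 second for all 5 genes. Control replicate 14 was lowest and replicate 11 next lowest for all 5, with replicate 12 highest for the 4 H2 genes and replicate 13 for Cd74. Averaged over the 5 genes, knockout replicate 19 stood 0.28 above its genotype mean on the log2(TMM-scaled RPKM + 1) scale and replicate 20 stood 0.21 below it, written as -0.21. Control replicates 12 and 14 stood at 0.15 and -0.20 on the same scale.

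**Figure D2:**
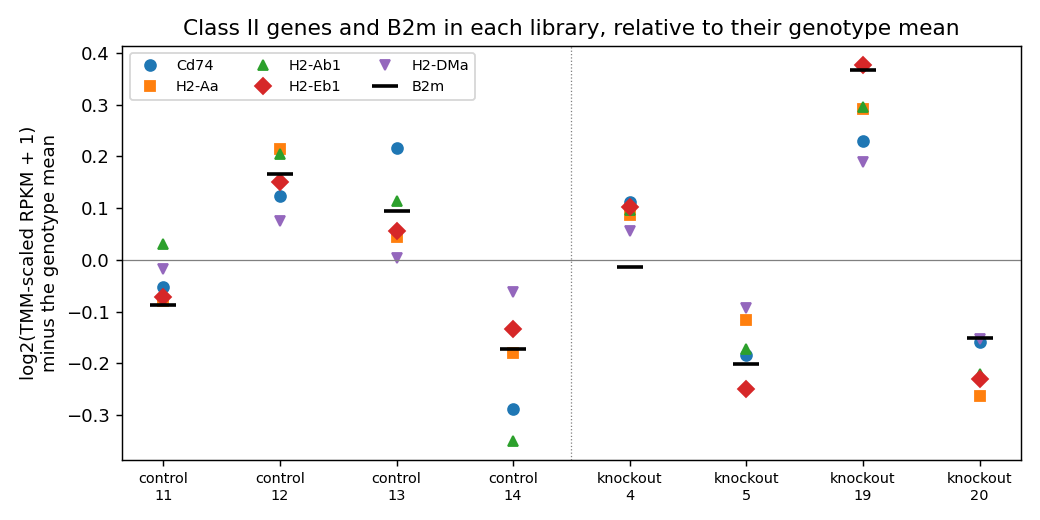
Deviation of each class II gene and of B2m from its genotype mean (y axis, log2(TMM-scaled RPKM + 1)) in the 8 libraries (x axis, replicate number below the genotype). Each symbol is 1 gene in 1 library; all 5 members are above their mean in knockout replicates 4 and 19 and below it in control replicate 14 and knockout replicates 5 and 20.

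Genes most like the members in this respect were ranked by the Pearson correlation of such deviations with the mean deviation of the members, over 8 libraries and 8759 genes, as a description. Predicted or unnamed transcripts were left out of the names. Among the rest B2m, the light chain of class I molecules, was second at 0.9497, after Gtf2a2, a general transcription factor subunit, at 0.959. Chmp1a, of the ESCRT membrane machinery, followed at 0.934, then Tmem258 at 0.931, Eml3 at 0.930, Nmt1 at 0.929, Pigp at 0.925, Fabp5 at 0.925, Samd4b at 0.924 and Cnih1 at 0.916. These are the highest of the genes that could be named. The 8759 values ranged from -0.955 to 0.959 with a median of 0.00, and all rest on the same 8 libraries and scaling factors. Of the 10, Nmt1, Fabp5, B2m, Chmp1a and Eml3 were called higher in the knockout by limma, and the other 5 were not called. With the listed-gene sum Gtf2a2, Pigp and Cnih1 were called lower (adjusted p = 0.00747, 0.0122 and 0.00712), and Pigp and Cnih1 also without control replicate 14 (0.0297 and 0.0435) or knockout replicate 19 (0.0497 and 0.0313). Nmt1, a myristoyltransferase, rose from 9.83 ± 0.407 to 20.2 ± 1.48 TMM-scaled RPKM (adjusted p = 8.30e-06) and Fabp5, a fatty acid carrier, from 11.9 ± 1.34 to 44.3 ± 13 (adjusted p = 6.03e-05; SD, n = 4 each). Among whole lists, the median correlation was 0.76 for 19 class I presentation genes (range 0.15 to 0.95) and 0.50 for 12 macrophage markers (-0.46 to 0.77). It was 0.45 for 8 pan-leukocyte markers (-0.001 to 0.90) and 0.13 for 14 adipocyte markers (-0.53 to 0.53). For the 12 genes of the class II loading list, mostly cathepsins and other endosomal genes, it was 0.08 (-0.52 to 0.63). All these ranges overlapped.

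The list of other class II chains and loading was mostly higher in the knockout. Its tested genes are H2-DMb1, Ifi30, Lgmn, Cst3, Cd63, Cd82 and the cathepsin genes Ctsb, Ctsc, Ctsd, Ctsh, Ctsl and Ctss. H2-DMb1 is the only class II chain among them, so the counts describe mostly cathepsins and other genes of the endosomal route. Of 17 genes on this list 12 are among the listed genes and were tested, and 9 rose and none fell (limma, adjusted p under 0.05), beside 19.4% higher over all genes. Their median log2 fold change was 0.37 against 0.01 for all genes. After scaling to the listed-gene sum 4 of the 12 rose, beside 12.4% higher over all genes under that scaling. H2-DMb2, H2-Oa, H2-Ob, H2-Ea-ps and H2-Eb2 are not among the listed genes and were not analysed here.

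Ctss, cathepsin S, the protease that makes the last cuts in the invariant chain in dendritic and B cells, had 4.46, 4.23, 3.59 and 2.45 TMM-scaled RPKM in control replicates 11, 12, 13 and 14. It had 7.93, 8.66, 7.08 and 8.99 in knockout replicates 4, 5, 19 and 20. Its ratio of TMM-scaled means was 2.22, and its limma log2 fold change, with 1 added to each value, was 0.99 ± 0.137 SE (adjusted p = 0.000404). In knockout replicate 19, where the members were highest, Ctss was the lowest of the 4. Ctsl, the cathepsin that takes this role in the thymic epithelium, rose from 14.4 ± 1.19 to 19.6 ± 1.64 TMM-scaled RPKM (adjusted p = 0.00340). Ctsb and Ctsc, further lysosomal proteases, rose 1.45-fold and 1.91-fold (adjusted p = 0.000781 and 0.000910). H2-DMb1, the beta chain of H2-DM, had 16 to 32 reads per control library and 37 to 52 per knockout library and rose from 1.25 ± 0.410 to 1.89 ± 0.281 TMM-scaled RPKM (log2 fold change 0.37 ± 0.125 SE, limma adjusted p = 0.0418), with overlapping groups. This call was lost, with adjusted p between 0.0630 and 0.104, on leaving out control replicate 11, 12 or 14 or knockout replicate 4, 5 or 19, and with the listed-gene sum. The ratio of H2-DMa to H2-DMb1 was 0.849 ± 0.247 in control and 0.873 ± 0.0871 in knockout libraries.

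Among the factors that act on class II promoters, Ciita was low. It had 0.366, 0.574, 0.451 and 0.314 deposited RPKM in control libraries, or 30 to 58 reads. In knockout libraries it had 0.661, 0.647, 1.13 and 0.596 deposited RPKM, or 60 to 102 reads. The groups did not overlap in deposited RPKM, but they did after TMM scaling, where control replicate 12 at 0.617 lay above knockout replicate 20 at 0.553. Its mean was below 1 RPKM, so it was not in the main test, and with no filter its adjusted p was 0.107 (limma; TMM-scaled ratio of means 1.56). In TMM-scaled RPKM, Ciita shared the order of the H2 members in control libraries, 12, 13, 11 and 14, though replicates 11 and 13 both held 35 reads. It was likewise highest in knockout replicate 19, but its knockout order was 19, 5, 4 and 20, while replicate 4 was second for all 5 members.

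Of 17 genes on the transcription list 16 are listed and 14 were tested, of which 4 rose and none fell, with a median log2 fold change of 0.08. That is 28.6% higher, beside 19.4% over all genes, on few genes. Irf1, an interferon-induced activator of the Ciita gene, rose 1.74-fold (adjusted p = 0.000560). Rfxank, a subunit of the RFX complex, rose from 1.17 ± 0.324 to 2.24 ± 0.506 (adjusted p = 0.00648), while the other RFX subunits, Rfx5 and Rfxap, had log2 fold changes of -0.14 and -0.18 and were not called (adjusted p = 0.184 and 0.132). Nfyb, a subunit of NF-Y, rose 1.35-fold (adjusted p = 0.0167), and this call was lost with the listed-gene sum (adjusted p = 0.0958). Ifngr1 and Ifngr2, the interferon gamma receptor chains, were not called (adjusted p = 0.679 and 0.190).

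On the list of turnover and costimulation, 8 of 13 genes are listed, 5 were tested, 1 rose and 1 fell, with a median log2 fold change of -0.06. These shares, 20% each way, are near those over all genes (19.4% higher and 15.9% lower). Lag3, an inhibitory receptor that binds class II molecules, rose 5.42-fold from 0.364 ± 0.154 to 1.98 ± 0.293 TMM-scaled RPKM (adjusted p = 2.79e-05), on 45 reads in the control and 286 in the knockout libraries. As with H2-DMa, its control mean lay below the minimum of 1 RPKM, and it was tested only through its knockout values. The limma log2 fold change of Lag3 was 1.13, and with no filter its adjusted p by limma was 4.87e-05. Mif, a cytokine that binds CD74 at the cell surface, stood at 18.5 ± 1.95 and 14.7 ± 2.07 TMM-scaled RPKM and fell (log2 fold change -0.32, adjusted p = 0.0422). The call on Mif was lost on deposited RPKM (adjusted p = 0.291), with no filter (adjusted p = 0.0504) and on leaving out control replicate 11, 12 or 14 or knockout replicate 5 or 19 (adjusted p 0.0679 to 0.113). Cd274, the ligand of PD-1, was not called (adjusted p = 0.616). Cd80, Cd86, Cd40 and Cd4 are not among the listed genes and were not analysed here.

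**Figure D3:**
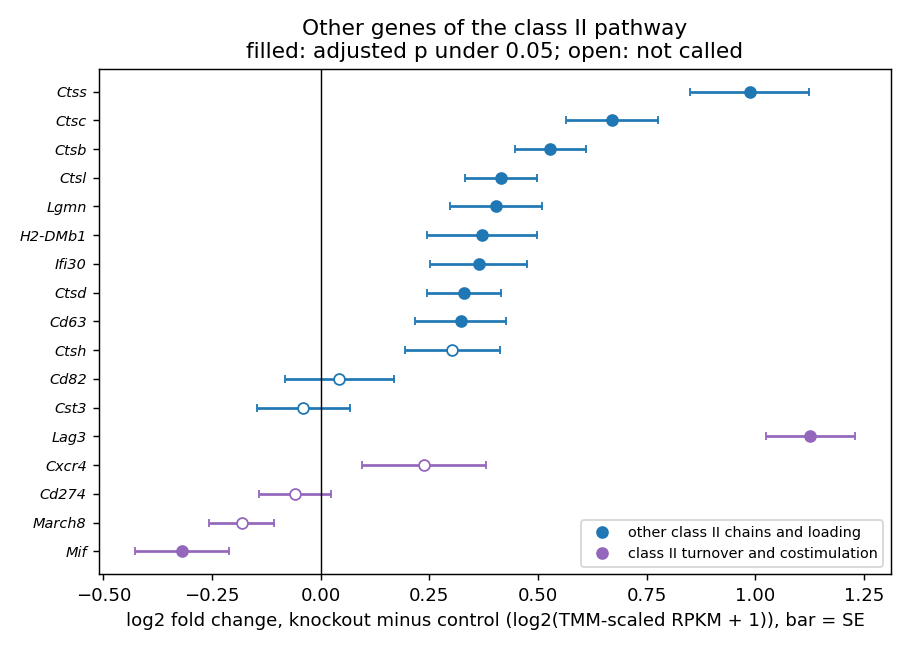
Log2 fold change, knockout minus control on log2(TMM-scaled RPKM + 1) (x axis), of the tested genes of the loading list and of the turnover and costimulation list (y axis). Points are limma estimates with SE (n = 4 each), filled where the adjusted p is under 0.05; 9 of 12 loading genes and 1 of 5 turnover genes are filled to the right of 0, and Mif alone is filled to the left.

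Markers of the cells that usually make class II molecules were compared in the same libraries. Of 17 macrophage markers 12 are listed and tested, and 11 rose and none fell, beside 19.4% higher over all genes, with a median log2 fold change of 0.65. Lyz2, lysozyme, had 18.0 to 23.6 TMM-scaled RPKM in control and 37.2 to 39.8 in knockout libraries (adjusted p = 5.43e-05). The complement genes C1qa and C1qb rose 1.99-fold and 2.03-fold (adjusted p = 0.000907 and 0.000962), and Csf1r, the receptor that sustains macrophages, rose 1.56-fold (adjusted p = 0.00117). The summed level of the 12 markers was 44.2 to 57.6 TMM-scaled RPKM in control and 88.4 to 104.6 in knockout libraries. None of the listed markers was at 0.

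Of 13 pan-leukocyte markers 12 are listed and 8 were tested, of which 7 rose and none fell, against 19.4% higher over all genes (median log2 fold change 0.60), with sums of 16.4 to 20.8 and 27.2 to 35.0 TMM-scaled RPKM. Itgb2, Coro1a, Cd52 and Ptprc rose between 1.94-fold and 2.08-fold (adjusted p = 0.000228, 0.000672, 0.00402 and 0.00423). Ptprc encodes CD45, carried by nearly all leukocytes. At 0.976 TMM-scaled RPKM in control libraries, Ptprc passed the filter of 1 RPKM through its knockout values.

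Of 15 dendritic cell markers 8 are listed and 4 were tested, of which 2 rose, too few to set against the 19.4% over all genes, with a median log2 fold change of 0.20. The 8 markers summed to 7.79 to 9.93 in control and 12.3 to 13.6 TMM-scaled RPKM in knockout libraries. Most of that difference was Irf4, and the mean sum of the other 7 markers was 7.60 in control and 8.56 in knockout libraries. Irf4, a transcription factor of dendritic cells and also of adipocytes, rose from 1.25 ± 0.0775 to 4.32 ± 0.704 (adjusted p = 1.08e-05). Clec10a, a lectin of dendritic cells and macrophages, rose 1.81-fold (adjusted p = 0.0214), a call lost without knockout replicate 4, 5 or 19 (adjusted p 0.0522 to 0.0582). At 0.875 TMM-scaled RPKM in control libraries, Clec10a passed the filter of 1 RPKM through its knockout values. Zbtb46, a factor of classical dendritic cells that endothelium also expresses, was not called (log2 fold change -0.08). Fscn1, of mature dendritic cells, was not called (adjusted p = 0.0916). Itgax, which encodes CD11c, stood at 0.288 ± 0.0599 and 0.632 ± 0.0589 TMM-scaled RPKM without overlap and was too low for the main test. With no filter, or with a filter of 0.5 RPKM in 4 libraries, 4 markers of this list were called higher. Xcr1, Flt3, Cd209a and Ccr7 are not among the listed genes and were not analysed here.

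Lymphocyte markers were sparse. Of 13 B cell markers Ebf1 and Cd79a are listed, and Ms4a1, Cd79b and the others were not analysed here. Cd79a, part of the B cell receptor, held 38 reads over the control and 41 over the knockout libraries and stood at 0.461 ± 0.329 and 0.441 ± 0.283 TMM-scaled RPKM. Ebf1, a factor of B cells and adipocytes, was not called (adjusted p = 0.163). Of 15 T and NK cell markers Thy1 alone is listed, at 0.828 ± 0.232 and 0.692 ± 0.134 TMM-scaled RPKM, below the test's minimum. Summed levels were 7.58 to 9.45 in control and 6.64 to 8.0005 in knockout libraries for the B cell list. Most of that sum was Ebf1, at a mean of 8.07 of 8.53 in control and 7.06 of 7.50 in knockout libraries. As adipocytes also express Ebf1, the sum is no measure of B cells.

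Set against leukocyte transcripts within a library, the class II sum overlapped between the genotypes. The 5 members came to 1.53 ± 0.0651 times the macrophage sum in control and 1.40 ± 0.238 times in knockout libraries (SD, n = 4 each). Knockout replicate 19 stood at 1.76 and the other knockout libraries at 1.25 to 1.33, on both sides of the control range of 1.45 to 1.61. Against the pan-leukocyte sum the ratios were 4.09 ± 0.218 and 4.05 ± 0.499, and against Ptprc 81.6 ± 15.8 and 67.8 ± 14.3, all with overlapping groups. These ratios do not depend on the scaling, and the part of these cells in the class II values was not tested. Adipocyte markers, from the cells that carry Cre, also differed. Of 14 tested 8 rose and 1 fell, beside 19.4% and 15.9% over all genes (median log2 fold change 0.58), with sums of 2887 to 3136 and 5331 to 6615 TMM-scaled RPKM. Cidec, a lipid droplet protein, rose 3.82-fold and Lpl, lipoprotein lipase, 2.64-fold (adjusted p = 5.61e-06 and 6.87e-06). Fabp4, a fatty acid carrier, rose 2.35-fold (adjusted p = 1.003e-05). Its mean went from 1698 to 3985 TMM-scaled RPKM, which was most of the difference between the adipocyte sums. Pparg, Pnpla2, Cd36, Cebpa and Lep were not called. Ucp1, the uncoupling protein of brown fat, fell from 158.9 ± 40.3 to 4.01 ± 2.89 (adjusted p = 3.65e-06, SD, n = 4 each).

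**Figure D4:**
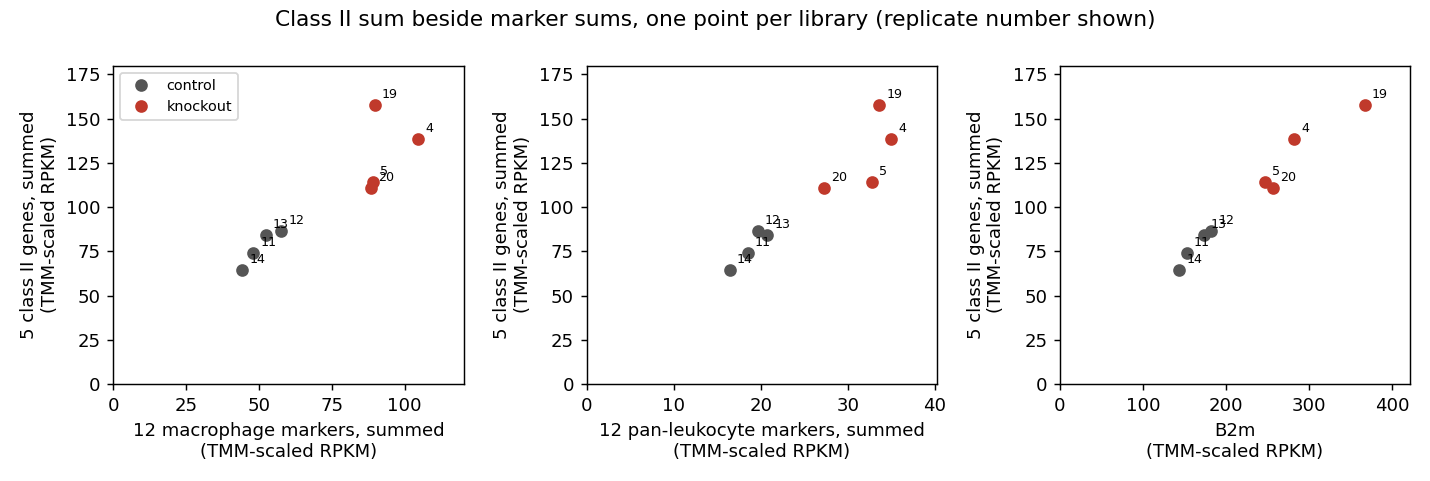
Summed TMM-scaled RPKM of the 5 class II genes (y axis) beside the summed macrophage markers, the summed pan-leukocyte markers and B2m (x axes, TMM-scaled RPKM), 1 point per library labelled with its replicate number. Knockout libraries lie at higher values on both axes in each panel, and knockout replicate 19 holds the highest class II sum at a macrophage sum close to those of replicates 5 and 20.

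Class I presentation, which shows cytosolic peptides on nearly all cells, was higher too. Of 19 genes tested 13 rose and 1 fell, beside 19.4% and 15.9% over all genes (median log2 fold change 0.59). B2m had 152.6, 182.3, 173.3 and 144.0 TMM-scaled RPKM in control replicates 11 to 14 and 281.9, 247.2, 367.0 and 256.2 in knockout replicates 4, 5, 19 and 20 (1.77-fold, adjusted p = 0.00107). The class II sum was 0.473 ± 0.0185 times B2m in control and 0.454 ± 0.0288 times in knockout libraries (SD, n = 4), with overlapping groups. Psmb8 and Psmb9, catalytic subunits of the immunoproteasome, rose 3.46-fold and 3.03-fold (adjusted p = 3.98e-05 and 0.000386). Tapbp, which loads class I molecules, rose 1.56-fold (adjusted p = 0.000242) and Erap1, a peptide trimmer, 1.36-fold (adjusted p = 0.000745).

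In the mouse genome H2-DMa, H2-DMb1, Psmb9, Tap1, Psmb8, Tap2, H2-Ab1, H2-Aa and H2-Eb1 follow each other in this order on chromosome 17, by RefSeq, while Cd74 lies on another chromosome. Of 23 other genes listed for the region 16 were tested, and 8 rose and 2 fell, with a median log2 fold change of 0.14. Of the 8, 5 were already counted above with the loading and class I genes. The 11 region genes on no other list gave 3 higher and 2 lower, beside 19.4% and 15.9% over all genes. Those called higher included the whole stretch of Psmb9, Tap1, Psmb8 and Tap2, where Tap1 and Tap2, the peptide transporter, rose 1.96-fold and 1.79-fold (adjusted p = 0.00157 and 0.00116). Outside this stretch the called changes were smaller, from -0.35 to 0.24 on the log2 scale apart from H2-DMb1. After scaling to the listed-gene sum 4 of the 16 region genes rose and 4 fell, beside 12.4% higher and 30.2% lower over all genes under that scaling. Without knockout replicate 5, 5 rose and 1 fell.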

How the data were processed

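TopHat2, featureCounts, edgeR and mouse build mm9 are named in the submitters' processing notes, with versions, settings, strand handling and annotation not given in the sources used here. As the file headers show, the authors' deposited table holds RPKM per library, a log2 fold change and average log2 CPM, and a p-value and FDR per gene. The deposited fold change is positive where knockout values are higher. All deposited RPKM values (100%) came out as whole reads to within 0.001 reads; for 43 genes a common factor across libraries was first restored. PCR duplicates cannot be removed, so reads state counting error only.

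As the table holds RPKM and not counts, genotypes were compared with limma 3.58.1 in R 4.3.3 (with trend) on log2(TMM-scaled RPKM + 1). This covered 8764 genes whose deposited RPKM averaged 1 or more, a reading of the 1 RPKM minimum settled after the table was seen. P-values, two-sided, were adjusted over all of them (Benjamini-Hochberg) and called under 0.05. TMM factors were computed from the recovered reads (trim 0.3 and 0.05). Log2 fold changes on this scale understate low genes. Changes written as a fold are ratios of TMM-scaled means without the pseudocount, and the adjusted p beside them is that of the limma log2 fold change. Alternatives were RLE factors, the library total alone (deposited RPKM as they are), the listed-gene sum, a pseudocount of 0.1, no filter, 0.5 RPKM in at least 4 libraries, limma voom on recovered reads, and leaving out each library.

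The members, the 11 gene lists and the rules were chosen with earlier results of these data known. Named genes are the members, Hdac3, Ciita and other class II genes, up to 4 called genes with the smallest adjusted p per list, and the 10 genes most like the members; further list genes were named after their values were seen, and 1 called gene of the transcription list is not reported here. H2 genes have near-identical relatives, and the treatment of reads shared between them is not known here.

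Python 3.11.15, numpy 2.4.6, pandas 2.3.3, scipy 1.17.1 and matplotlib 3.10.9 were used.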

Additional observations from a re-analysis of the deposited data

Results flagged for a closer look

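Within each genotype, 6 of 106 groups of 4 libraries held 1 library far from the other 3, where chance flags about 1 in 20, or 5.3. In TMM-scaled RPKM, Psmb9 stood at 21.8 in knockout replicate 19 (other knockout libraries 11.1 to 12.0) and at 5.64 in control replicate 12, against 4.18 to 4.37. Tapbp stood at 22.8 in knockout replicate 19 (others 19.4 to 19.9). These are libraries in which the class II genes were also high. Ctsl stood at 12.7 in control replicate 11 (others 14.9 to 15.1), Thy1 at 0.492 in knockout replicate 5 (others 0.744 to 0.779) and Nmt1 at 9.23 in control replicate 14 (others 9.96 to 10.1). None of the 5 class II genes was flagged.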

How the results depend on the processing

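The median log2 fold change of the 5 members was 0.68, and 0.53 with the listed-gene sum, 0.85 with the library total alone and 0.55 to 0.76 on leaving out 1 library; its sign was fixed by how the genes were chosen. H2-DMa, at 0.41, was 0.67 with a pseudocount of 0.1 and 0.70 with voom, since the pseudocount of 1 compresses low values. Over all genes, 1703 were higher and 1391 lower; the library total alone gave 2796 and 628, the listed-gene sum 1087 and 2651; leaving out 1 library gave 1477 to 1571 and 1134 to 1248. With the listed-gene sum, 4 loading genes rose, 3 transcription genes fell, 2 turnover genes fell, 1 dendritic cell marker and 1 B cell marker fell, and 4 region genes rose and 4 fell. With the library total alone, 0 turnover, 0 class I and 0 region genes fell. With no filter 2 turnover genes rose and 0 fell and 4 dendritic cell markers rose; with 0.5 RPKM in 4 libraries 2 turnover genes and 4 dendritic cell markers rose. On leaving out 1 library, 0 to 1 transcription genes fell, 1 to 2 turnover genes rose and 0 to 1 fell, 1 to 2 dendritic cell markers rose and 0 to 1 fell, and 5 to 7 region genes rose and 1 to 3 fell. Of genes not called, Cd274 turned to 0.10, Gtf2a2 to 0.036 and Samd4b to 0.057 (log2) with the library total alone. The cause of these shifts was not tested. No paired analysis was possible because the genotypes share no replicate number. H2-DMa, H2-DMb1 and Ciita rest on at most 102 reads per library, which limits what their values can show.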
